A study of Caenorhabditis elegans with 2 samples.

Results

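The retinoblastoma protein LIN-35, its transcription factor partners and the core subunits of the DREAM complex are encoded in Caenorhabditis elegans by 8 genes examined here: lin-35, efl-1, dpl-1, lin-9, lin-37, lin-52, lin-53 and lin-54. They were chosen by name, as the known components of the complex, from 19973 protein-coding genes of Ensembl release 115. The measurement was chromatin immunoprecipitation with sequencing (ChIP-seq) of F13C5.2, annotated in RefSeq as a Bromo domain-containing protein, through a green fluorescent protein (GFP) tag. The strain was OP605 (unc-119(tm4063) III; wgIs605), an unc-119 mutant line with an integrated transgene that adds a C-terminal GFP-FLAG tag to F13C5.2. An antibody to GFP was used on sonicated chromatin. Embryos of both sexes were taken whole, 1 hour after egg bleaching, so a peak is an average over all their cells. There was 1 group of 2 biological replicates, numbered 2 and 3, and no second condition, so no difference between conditions could be tested.

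DREAM is a repressor of cell cycle genes that is conserved from worms to mammals. A pocket protein of the retinoblastoma family (LIN-35) is joined to an E2F-DP heterodimer (EFL-1 and DPL-1) and to a core called MuvB (LIN-9, LIN-37, LIN-52, LIN-53 and LIN-54). E2F-DP dimers bind GC-rich sites and LIN-54 binds the cell cycle homology region (CHR), an AT-rich site. In worms the genes are known as class B synthetic multivulva (synMuv B) genes, because their loss together with that of a class A gene gives ectopic vulvae. They also keep germline genes silent in somatic cells.

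The DNA at 4 reproducible summits, those of efl-1, lin-9 and lin-54 and the one upstream of lin-37, is shown because it holds the E2F-like and CHR-like letters counted below. The summits of lin-35 and lin-53 are not shown here and hold no E2F-like letters in the same window, so the 4 runs do not show how common the letters are. Each run holds the summit and up to 100 bases on either side from the WBcel235 (ce11) assembly of RefSeq, with bases in annotated exons trimmed off, and is written 5′ to 3′ on the strand of the named gene. Capitals mark the searched letters on either strand: as E2F-like letters TTCCCGC along with TTGGCGC along with TTCGCGC along with TTGCCGC, and as CHR-like letters TTTGAA along with TTCGAA. The runs come from chrV:16965711-16965911, chrIII:8904197-8904397, chrIII:7074072-7074248 and chrIV:13240652-13240786. The lin-37 run belongs to a summit further upstream, at the gene ZK418.5.
efl-1: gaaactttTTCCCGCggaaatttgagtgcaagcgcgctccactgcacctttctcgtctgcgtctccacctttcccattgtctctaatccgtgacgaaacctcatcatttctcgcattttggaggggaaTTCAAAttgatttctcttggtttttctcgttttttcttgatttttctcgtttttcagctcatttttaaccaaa
lin-9: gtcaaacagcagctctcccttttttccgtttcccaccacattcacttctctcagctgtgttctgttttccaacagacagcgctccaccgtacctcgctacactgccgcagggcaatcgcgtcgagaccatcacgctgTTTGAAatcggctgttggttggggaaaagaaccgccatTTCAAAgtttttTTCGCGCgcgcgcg
lin-37: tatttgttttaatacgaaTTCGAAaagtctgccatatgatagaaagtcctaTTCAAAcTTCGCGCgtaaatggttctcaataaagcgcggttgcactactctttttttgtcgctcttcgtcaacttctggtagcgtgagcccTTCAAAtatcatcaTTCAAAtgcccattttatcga
lin-54: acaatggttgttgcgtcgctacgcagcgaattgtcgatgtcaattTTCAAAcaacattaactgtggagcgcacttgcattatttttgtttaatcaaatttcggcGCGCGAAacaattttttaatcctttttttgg

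The letters differ between these summits. At efl-1 the E2F-like TTCCCGC starts at base 9 and a TTCAAA, which is TTTGAA on the other strand, at base 129, on either side of the summit at base 101. At lin-9 both kinds lie on the side towards the gene, with TTTGAA at base 138, TTCAAA at base 176 and TTCGCGC at base 188, and the window holds 53.2% G and C. At the summit upstream of lin-37, TTCGCGC at base 59 is 1 of 5 matches and the other 4 are CHR-like. At lin-54 the E2F-like letters read GCGCGAA, at base 105, and lie on the lin-54 side of a summit at base 35. The trimmed-off part of that window also holds TTGGCGC.

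Of the 8 genes, 5 had a reproducible peak in a promoter window. A promoter window reached 1000 bp upstream and 200 bp downstream of a 5′ end of a coding transcript. A peak was called reproducible when it was in the authors' optimal list by irreproducible discovery rate (IDR), which holds 1850 peaks. Of the 1850, 1695 had a summit within 100 bp in both replicates, and 1022 (55.2%) were among the 1850 strongest peaks of both. Among all protein-coding genes 1700 (8.51%) had an IDR summit in a promoter window. The 5 members were lin-35, efl-1, lin-9, lin-53 and lin-54. The genes dpl-1 and lin-52 had weaker peaks below the IDR list, and lin-37 had none in its window. When the IDR list was cut to its stronger 50%, all 5 still had a summit, against 4.46% of all genes. The same 5 also had one among the 1850 strongest peaks of each replicate, against 5.29% of all genes. The members were picked by function with earlier results of these data known, and lin-35 was among those results, so these counts are descriptions.

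lin-35 (chrI:5807709-5815637, plus strand) is the only pocket protein gene of the worm. The signal of its peak, a score assigned by the authors' peak caller, was 197 in the pooled list of both replicates (rank 174 of 30000). Its peak had a signal of 87.0 (rank 240) in replicate 2 and 108 (rank 173) in replicate 3, with summits 14 bp apart. The replicates place it at close ranks. The peak spans chrI:5807425-5807546 and its summit is 240 bp upstream of lin-35. The divergent gene vps-51, for a vesicle tethering subunit, starts 178 bp from the same summit and is nearer. The 7929 bp body of lin-35 held 0 pooled summits. The replicate 2 list had 3 weak ones there, of signal 19.7 at most, and the replicate 3 list had 0. Other coding genes overlap that body.

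efl-1 (chrV:16958590-16965675, minus strand) encodes the E2F protein. The signal of its peak was 127 (rank 605) in the pooled list, 57.6 (rank 807) in replicate 2 and 70.5 (rank 615) in replicate 3. Its summit (peak chrV:16965593-16966028) lies 136 bp upstream of the gene and 1003 bp from fbxa-90, and the replicate summits fall 1 bp apart. The nearest coding 5′ end is thus that of efl-1 itself. A second, weaker pooled summit lies 339 bp upstream of efl-1, with a signal of 43.4.

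dpl-1 (chrII:9169910-9172565, plus strand), the gene for the DP partner of EFL-1, had a peak that differs between the replicates. The pooled signal was 60.9 (rank 2928, peak chrII:9169461-9169896), below the lowest IDR signal of 77.9. In replicate 2 the peak had a signal of 42.2 (rank 1673) and in replicate 3 a signal of 20.6 (rank 11566). Only replicate 2 places it among its 1850 strongest peaks, where 8.9% of all genes had a summit and 6 of the 8 members did. The deposited −log10 q-value was 2.83 in replicate 2 and 0.480 in replicate 3. The summit lies 231 bp upstream of dpl-1 in an exon of T23G7.2, an opposite-strand gene that spans dpl-1.

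lin-54 (chrIV:13241044-13243401, plus strand), which encodes the DNA-binding subunit of MuvB, had the strongest peak of the 8. The signal was 215 in the pooled list (rank 138). In the replicates the matched peak had a signal of 110 (rank 132) in replicate 2 and 99.7 (rank 223) in replicate 3. Both replicates thus place it high, and their summits are 35 bp apart. The peak (chrIV:13240560-13240781) reaches into the divergent gene rpl-12. Its summit lies between genes, in a stretch of 392 bp that separates lin-54 from rpl-12. This summit is 358 bp upstream of the 5′ end of lin-54 and 35 bp upstream of that of rpl-12. The product of rpl-12 is a protein of the large ribosomal subunit. The nearer gene is therefore rpl-12.

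lin-53 (chrI:9618196-9619760, minus strand) encodes a histone-binding WD-repeat protein of the RbAp46/48 family that also serves in other chromatin complexes. Its signal was 179 (rank 230) in the pooled list, 104 (rank 160) in replicate 2 and 71.2 (rank 599) in replicate 3. Of the 5 reproducible peaks it is the one whose replicate ranks lie furthest apart, by a factor of 3.74. Among the 1695 IDR peaks matched in both replicates, the median factor was 2.01, so such a gap is wider than usual but both ranks remain inside the strongest 1850. The peak (chrI:9619899-9620041) sits 239 bp upstream of lin-53 and 228 bp upstream of the divergent gene nra-2, the nicalin homolog. The gene rba-1, a close homolog of lin-53, follows 88 bp downstream on the same strand and had no pooled summit in its own window.

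lin-9 (chrIII:8900237-8904131, minus strand) encodes a MuvB core subunit. The signal of its peak was 146 (rank 410) in the pooled list, 62.9 (rank 634) in replicate 2 and 78.8 (rank 457) in replicate 3. The summit (peak chrIII:8904079-8904514) lies 166 bp upstream of lin-9 and 1318 bp from unc-32, the next gene. The lin-9 5′ end is the nearest, as at efl-1, and both genes rank somewhat higher in replicate 3 than in replicate 2.

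lin-37 (chrIII:7070890-7072552, minus strand), another MuvB subunit gene, had no summit in its own window in any of the lists. It starts 60 bp behind ZK418.5 on the same strand, an arrangement seen in worm operons. A reproducible peak (chrIII:7073954-7074389) lies 1620 bp upstream of lin-37 and 321 bp upstream of ZK418.5, whose product RefSeq names BOS complex subunit TMEM147. Its signal was 118 (IDR rank 726) in the pooled list, 67.9 (rank 507) in replicate 2 and 45.7 (rank 1787) in replicate 3, with summits 16 bp apart. With a window of 2000 bp upstream and 500 bp downstream, 6 of the 8 members had an IDR summit, against 11.2% of all genes. The added gene is lin-37. With the first 5′ end of its same-strand run added (gaps of at most 500 bp), lin-37 still had no IDR summit in a window. That run extends upstream past ZK418.5, so the 5′ end added was not that of ZK418.5, whose own window does hold the summit. Whether ZK418.5 and lin-37 share a transcript was not examined.

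lin-52 (chrIII:9824083-9824750, minus strand), for the small subunit that links the pocket protein to MuvB in mammals, had a low peak at its 5′ ends. The pooled signal was 39.3 (rank 6863), about the median of 39.4 over the strongest peaks of all genes with a pooled summit in a window. The summit lies 31 bp inside the shorter transcript, in an exon. Replicate 2 had a matched peak of signal 17.6 (rank 11707), and replicate 3 had no summit within 100 bp. The deposited −log10 q-value was only 0.805 in the pooled list and 0.298 in replicate 2. The strongest replicate 2 peak in the windows lay elsewhere, 637 bp upstream, with a signal of 21.7 (rank 7186). That summit is 45 bp from the 5′ end of ZK632.9, a gene on the same strand that ends 126 bp before lin-52. The strongest replicate 3 peak in the windows lay 140 bp upstream of lin-52, with a signal of 28.0 (rank 5510). The replicates thus do not share a summit here.

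**Figure D1:**
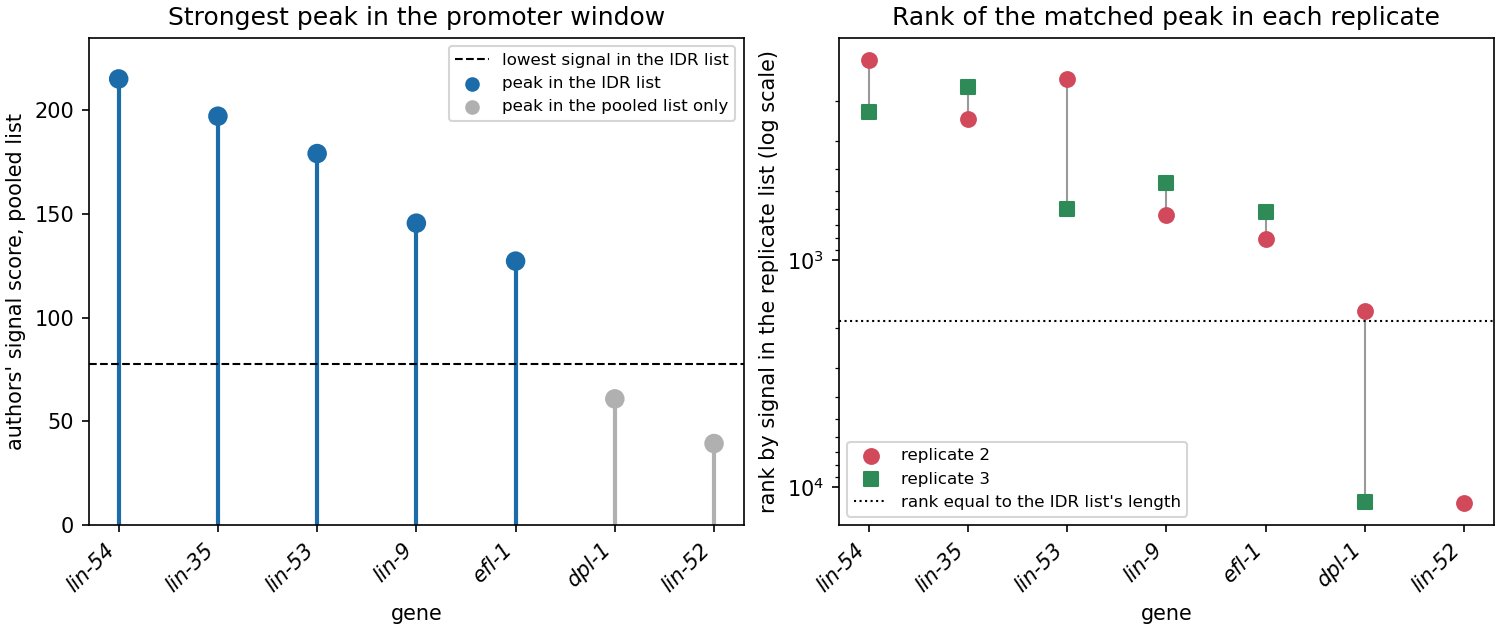
The left plot gives the authors' signal score of the strongest pooled peak in the promoter window of each gene (vertical axis, from 0), with the lowest IDR signal of 77.9 dashed; the right plot gives the rank of the matched peak in replicate 2 (circles) and replicate 3 (squares) on a log axis, strongest at the top, with rank 1850 dotted. From lin-54 to efl-1 both replicates rank above that line, at dpl-1 only replicate 2 does (rank 1673 against 11566), lin-52 has no replicate 3 match and lin-37 has no peak in its window.

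The order of the genes by signal was partly shared by the replicates. In replicate 2 it ran lin-54, lin-53, lin-35, lin-9, efl-1 and dpl-1, and in replicate 3 it ran lin-35, lin-54, lin-9, lin-53, efl-1 and dpl-1. The genes lin-54, lin-35 and lin-53 thus change places between replicates, and lin-53 and lin-9 do so too, so their order was not stable between the replicates. In both replicates efl-1 comes after the other 4 and before dpl-1, but in replicate 3 its signal of 70.5 is close to the 71.2 of lin-53. The order leaves out lin-52, which had no matched summit in replicate 3. The median strongest signal was 179 for the 5 members with an IDR summit, against 109 for the 1700 genes with one. The peaks of lin-35, lin-53 and lin-54 were 122, 143 and 222 bp wide, whereas 84.2% of IDR peaks had the modal width of 436 bp. Narrower peaks made up 15.4% of the IDR list and had a median signal of 205, against 102 at the modal width.

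Position split the members with reproducible peaks into 2 kinds. The summits of lin-35, lin-53 and lin-54 each lay in the stretch of 392 to 466 bp between a divergent pair, in the window of the partner as well. In the pooled list each was nearer to the partner. At lin-53 the pooled margin was small, 239 against 228 bp, and the replicate 3 summit was nearer to lin-53 (229 against 238 bp). The genes upstream of efl-1 and lin-9 are also divergent, across 1138 and 1483 bp. The pooled efl-1 summit lay 1003 bp from fbxa-90, just outside its window, and the replicate summits 967 and 966 bp. Over all 1700 genes with an IDR summit, 54.9% shared the strongest one with another gene and 28.4% had another coding 5′ end nearer to it. When a summit counted for its closest gene alone, 2 of the 8 members (efl-1 and lin-9) had one, against 6.13% of all genes. A peak between divergent genes cannot be attributed to either side from these lists. All 5 summits were upstream of the gene, at 136 to 358 bp, against a median offset of -240 bp with quartiles of -403 and -136 bp over the 1700 genes (negative is upstream). They lay between genes, and 0 tRNA, snoRNA or small nuclear RNA genes were within 500 bp of the summits. The shares of all IDR peaks with these traits are not given here, so the traits do not set the members apart.

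**Figure D2:**
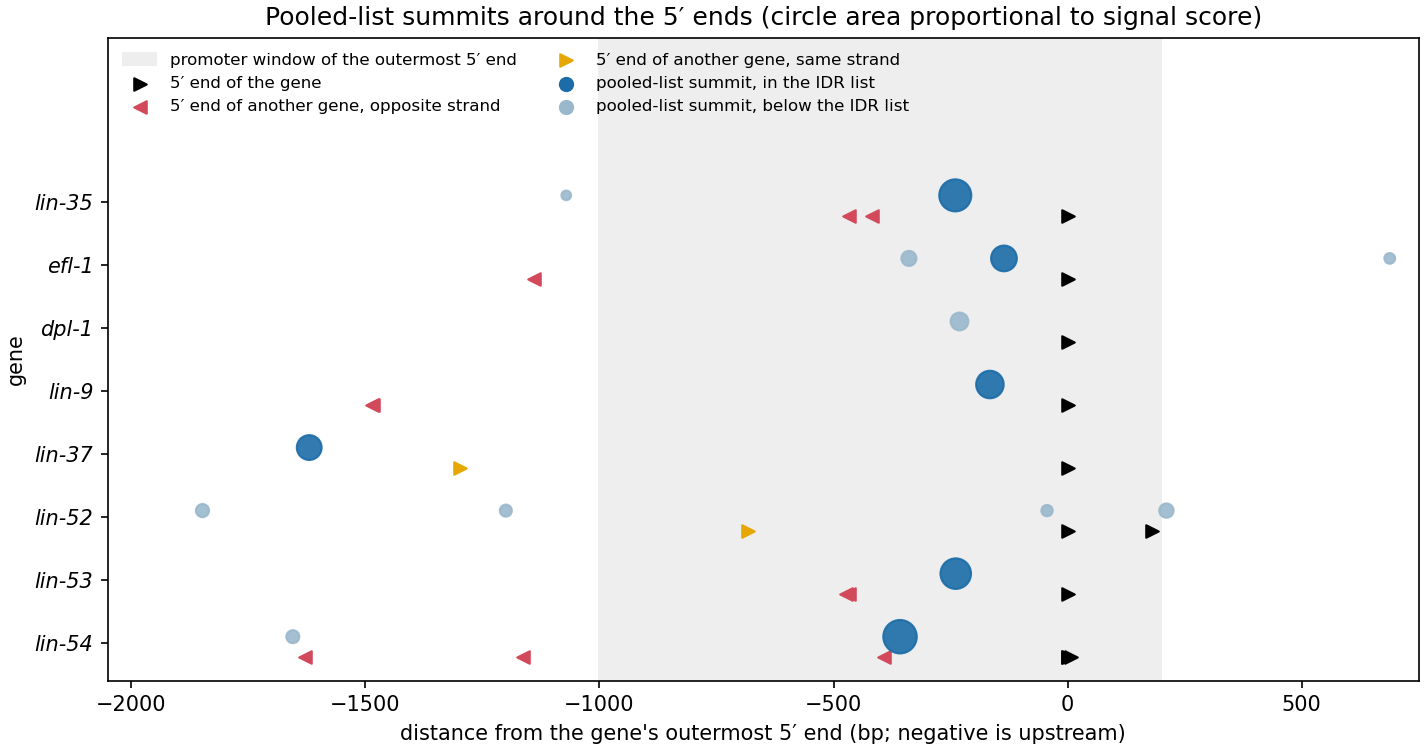
Each row is a gene, with distance in bp from its outermost 5′ end on the horizontal axis (negative is upstream), circles for pooled-list summits (area proportional to signal, dark where the peak is in the IDR list) and triangles for 5′ ends that point in the direction of transcription. The large dark circles of lin-35, lin-53 and lin-54 lie in a stretch of 392 to 466 bp between the gene and an opposite-strand gene. Those of lin-9 and efl-1 lie 166 and 136 bp from the gene and further from an opposite-strand 5′ end, at 1318 and 1003 bp. That of lin-37 lies 1620 bp upstream, outside the shaded window. The lin-52 summit just right of the shading is in the window of the second 5′ end of that gene.

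In the wider pooled list nearly all members had a summit. That list holds 30000 peaks and background regions, and 7827 genes (39.2%) had a summit of it in a window, as did 7 of the 8 members. The median strongest signal was 146 for those 7, against 39.4 for the 7827 genes. All pooled summits in the gene bodies had signals below the lowest IDR signal of 77.9. The highest pooled signals there were 31.1 in lin-9, 29.9 in lin-54 and 22.4 in efl-1, apart from the lin-52 summit already given. The bodies of dpl-1, lin-35, lin-37 and lin-53 held 0. The share of all coding genes with a summit in the body is not given here.

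E2F-like letters were found in the summit windows of 3 of the 5 members with an IDR summit, efl-1, lin-9 and lin-54, and in the window upstream of lin-37. They occur in 16.0% of all 1850 IDR windows that reach 100 bp to either side of the summit. CHR-like letters were found at efl-1, lin-9, lin-53 and lin-54, and occur in 39.7% of the windows. The lin-35 window, with 36.8% G and C, held neither. In windows of 200 bp to either side lin-53 gained TTCCCGC, while lin-35 still held neither kind. Of the 1850 IDR windows of that size, 21.5% held E2F-like and 66.4% CHR-like letters. In the promoters (250 bp before to 50 bp after the outermost 5′ end) E2F-like letters were present at efl-1, lin-9 and lin-53, against 9.19% of all coding genes. CHR-like letters were present at 6 of the 8 members, against 68.9% of genes. Both strands were searched, a window counted once however many matches it held, and TTCGAA reads the same on both strands. A match says only that the letters are there.

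Of 37 genes that act with, against or upstream of the complex or share a subunit type with it, 11 had an IDR summit. Among all protein-coding genes the share was 8.51%, which is the reference for each list below. The lists were written from textbook knowledge, with earlier results of these data known, and their difference from the 8 members was not tested. Of 11 other synMuv B genes, 3 had a summit: lin-36, for a THAP-domain protein (signal 148, IDR rank 391), tam-1, for a RING-domain protein (99.9, rank 1116), and lin-61, for an MBT-repeat protein (98.9, rank 1142). lin-36 ranked 308 in replicate 2 and 711 in replicate 3. At lin-61 the gene bub-1 is nearer and replicate 2 had no matched summit. Of 4 class A genes, lin-38 had a summit (107, rank 945), which ranked 394 in replicate 2 and 3531 in replicate 3.

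All 4 genes of the class C list, whose products are homologs of subunits of the Tip60 acetyltransferase complex, had an IDR summit. The signals were below the IDR median of 107, at 100.1 for the acetyltransferase gene mys-1, 99.8 for trr-1, the TRRAP homolog, 91.7 for ssl-1, a helicase, and 86.5 for epc-1, the enhancer of polycomb homolog. With the higher-signal 50% of IDR peaks 0 of the 4 had one, against 4.46% of all genes. With the nearest 5′ end only, 2 had one, against 6.13% of all genes, since C47D12.2 is nearer at trr-1 and hut-1 at ssl-1. The replicates ranked them from 1124 to 1874 in replicate 2 and from 1370 to 3310 in replicate 3. The matched peaks of 3 genes in replicate 2 and of 2 genes in replicate 3 were among the 1850 strongest.

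Of 11 genes in a list of cyclin, CDK and E2F genes and of other genes upstream of or beside LIN-35, 2 had a summit, against 8.51% of all genes. At cdk-4, the kinase gene upstream of LIN-35 (signal 102, rank 1048), the replicates differed, with rank 5664 in replicate 2 and a place among the 1850 strongest peaks in replicate 3. At cye-1, for cyclin E (102, rank 1063), the ranks were 603 and 2001 in replicates 2 and 3, and pqn-21 is nearer. The other E2F genes had pooled summits below the IDR list, with signals of 58.2 at efl-3 and 21.6 at efl-2. Of 7 further genes for complexes that use proteins like LIN-53, chaf-2, for a subunit of chromatin assembly factor 1, had a summit (124, rank 649), and hat-1 was next at 71.9. Across all 37 genes the signals of the IDR summits ranged from 86.5 to 148, against 127 to 215 for the 5 members.

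**Figure D3:**
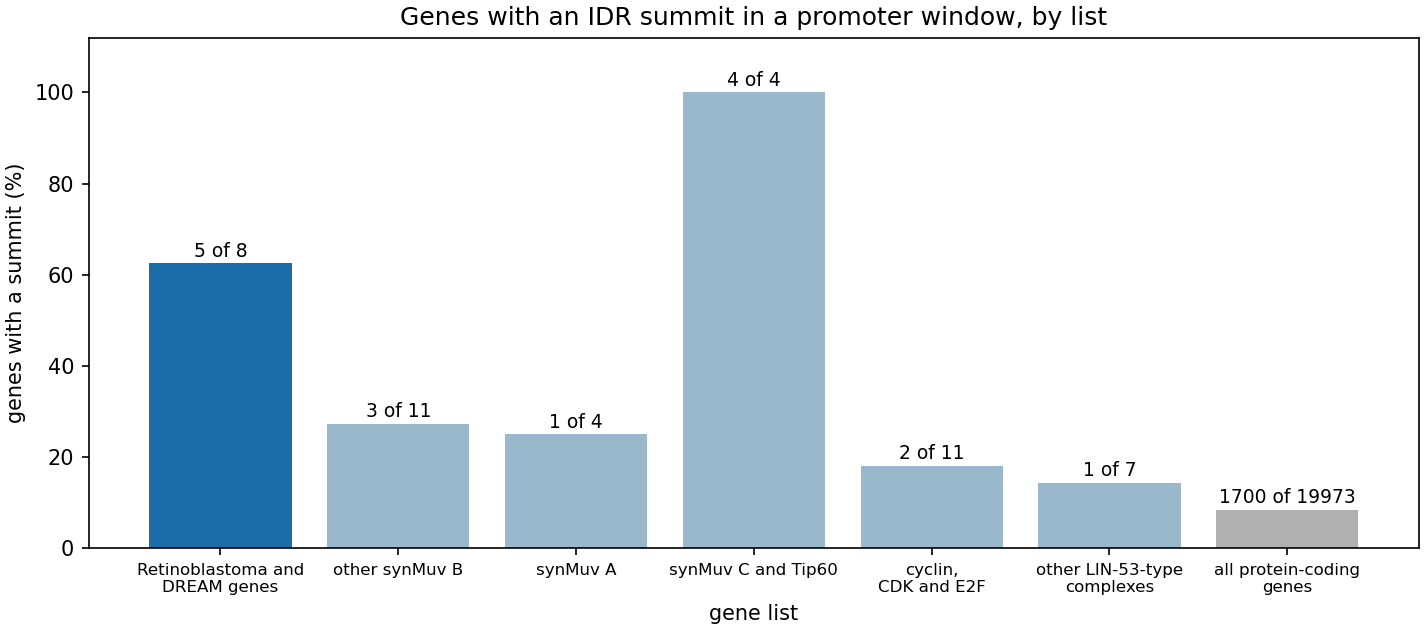
Bars give the percentage of genes in each list with an IDR summit in a promoter window (vertical axis from 0), with counts above the bars and all protein-coding genes at the right. The 8 members reach 5 of 8, the class C and Tip60 list 4 of 4, the other lists between 1 of 7 and 3 of 11, and all genes 1700 of 19973.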

How the data were processed

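Peak lists on ce11 were used as deposited: 1 per replicate, 1 pooled and the optimal IDR list. Per the deposited file descriptions the authors derived the replicate and pooled lists from the replicate alignments and 2 further files, which also enter the control-normalized tracks, and the IDR list from those 3 lists. The caller, the aligner and the threshold for IDR are not stated in the labels or file descriptions. The read depth is unknown, so no interval on a peak's height can be given. The deposited signal is a score of the authors' caller and was used to rank peaks within 1 list. The deposited −log10 q-value was tied at 3.53 for 1692 pooled peaks. Each deposited list of replicate and pooled peaks holds 30000 entries. The 1850 IDR peaks are the 1850 pooled peaks of highest signal.

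Summits (peak start plus summit column) were compared with 5′ ends of protein-coding transcripts in Ensembl release 115 (WBcel235, the same assembly as ce11). A replicate peak was matched when its summit lay within 100 bp of the pooled summit. Sequence was read from the RefSeq copy of the assembly. The ce10 lists were not used here. Members and lists were chosen with earlier results of these data known. The genes named are the 8 members, genes that share or lie nearer to their summits, and up to 3 genes of highest IDR signal per list. The 4th gene of the class C list, the nearer genes at listed summits, rba-1, ZK632.9, efl-2, efl-3 and hat-1 were added after values were seen. No test was run, since there is 1 group. Assignment was tested on simulated summits. Alternatives changed the window, the 5′ ends, the overlap rule, the list and the replicate. The scripts ran under Python 3.11.15 with pandas 2.3.3, numpy 2.4.6 and, for plots, matplotlib 3.10.9.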

Additional observations from a re-analysis of the deposited data

How the results depend on the processing

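The count of 5 members with an IDR summit ranged from 5 to 6 under the other windows, the outermost 5′ end, any overlap, the higher-signal 50% of peaks and single replicates (5 without replicate 2, 6 without replicate 3, where dpl-1 was added). It fell to 2 with the nearest 5′ end only, and that of the pooled list to 4, against 7, because the partner genes are nearer. At lin-53 this rests on 228 against 239 bp, and the replicate 3 summit was nearer to lin-53. Under the nearest-end rule 34.0% of all coding genes had a pooled summit. The IDR count stayed at 5 with RefSeq 5′ ends and with the first 5′ end of a same-strand run, both chosen after seeing the data. The share of all coding genes was 8.51% and became 6.94% with a window of 500 bp upstream and 100 bp downstream, 11.2% with 2000 and 500 bp, 7.97% with the outermost 5′ end, 9.26% with any overlap, 6.13% with the nearest 5′ end, 4.46% with the higher-signal 50%, 11.9% with same-strand runs and 7.36 to 8.9% with single replicates. The count of 11 of 37 related genes became 7 with the nearest 5′ end and 2 with the higher-signal 50%. It rose to 16 with the window of 2000 and 500 bp and to 13 with any overlap. The count was 9 with the window of 500 and 100 bp, 10 without replicate 2 and 9 without replicate 3. The highest member signal, 215 in the pooled list, was 108 to 110 in single replicates, whose scores are on their own scales. No paired analysis was possible because there is 1 group. Depth is unknown, so a missing summit is not evidence of no binding. Peaks from an untagged strain were not analysed here.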
